A study of Mus musculus with 4 samples.

Results

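The genes described here are 10 heat shock and small chaperone genes, Hspa1a, Hspa1b, Hspa4l, Hspa8, Dnajb1, Hsph1, Hsp90aa1, Hspb1, Cryab and Hspb8, of the 32285 genes in the count matrices. They were selected on their symbols with their levels, and the share of their UMIs held by the top 1% of cells, already known, so those values are given as a description with no test. The data are 4 single-cell libraries of cultured mouse fat cells, 1 library for each of 4 groups. DFAT cells are de-differentiated fat cells, grown from floating mature adipocytes that attach to the upper wall of a filled flask (ceiling culture) and take on a spindle shape. SVF cells are the cultured stromal vascular fraction of the same fat pads, which the study names adipose stem and progenitor cells (ASPCs). The groups were iWAT_DFAT (inguinal, a subcutaneous pad), eWAT_DFAT (epididymal, a visceral pad), iWAT_SVF and eWAT_SVF. By the study's methods the cells came from male C57BL/6J mice on chow, without a transgene or a treatment. The age of the mice, the time in culture and whether animals were pooled are not given in the sources used here. All cells were detached with trypsin-EDTA and sorted by 7-AAD, a dye that enters dead cells.

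After keeping barcodes with 5000 to 75000 UMIs, 200 to 7500 genes and under 10% mitochondrial UMIs, the libraries held 7629, 6464, 7424 and 6745 cells (iWAT_DFAT, eWAT_DFAT, iWAT_SVF, eWAT_SVF, the order of all such lists here), with median UMIs of 22111, 27425, 24930 and 27617 a cell. A UMI is 1 captured RNA molecule, and levels are given as CPM, counts per 1000000 UMIs of the cells. The pad labels held: the inguinal gene Tbx15 was at 91.3 and 103 CPM in the iWAT libraries and at 0.372 and 0.532 in the eWAT libraries, and the visceral gene Wt1 was at 0.131 and 0.0150 against 20.1 and 34.8. Pdgfra, which marks progenitors, was at 82.5 to 246 CPM in the 4 libraries. The adipocyte gene Plin1 was at 13.9 and 27.3 CPM in the DFAT libraries and at 0.286 and 0.764 in the SVF libraries. Any pair of libraries shared 13 to 20 cell barcodes (0.170% to 0.297% of either library). The file header of iWAT_SVF names another Cell Ranger version than the other 3, so in each comparison with it a difference in counting cannot be told apart from the group.

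Heat shock proteins are chaperones, which hold, fold and refold other proteins. Hsp70 proteins take up unfolded chains with a J protein such as Dnajb1 and release them with an exchange factor such as Hsph1, and Hsp90 works on partly folded clients such as kinases and steroid receptors. Small heat shock proteins such as Hspb1 and Cryab use no ATP and bind unfolding proteins and the cytoskeleton. On heat or protein damage the transcription factor Hsf1 binds heat shock elements, repeats of GAA and its reverse complement TTC spaced by 2 bases, and turns on many of these genes. Hspa8 is the Hsp70 of unstressed cells, whereas Hspa1a and Hspa1b are its stress-inducible relatives.

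Hspa1a (ENSMUSG00000091971, chr17:34969190-34972156, minus strand) and Hspa1b (ENSMUSG00000090877, chr17:34956436-34959238, minus strand) are single-exon genes 9951 bases apart on the mm10 genome. They are close relatives whose transcripts were not compared here, so how well reads tell them apart is uncertain. Their promoters, from 250 bases before to 50 bases after the start, differed at 4 of 300 bases (98.7% identical). Promoters of 7 of the 10 genes were found in the RefSeq table (GRCm38.p6, the same build). At least 1 pair of heat shock units, GAANNTTC or TTCNNGAA, stood in 5 of the 7 genes, or 6 of their 9 promoters, which include the nearly identical pair of Hspa1a and Hspa1b and the overlapping pair of Hsph1. Over the table it stood in 4946 of 32851 promoters (15.1%). Both patterns are their own reverse complement, so 1 strand covers both. Hsph1 was the only one of the 7 with 3 alternating units in a row, a run found in 198 of all promoters (0.603%). Of the 5, Hspa1a, Hspa1b, Hspb1 and Hsph1 are shown, and Hspa4l is shown because the results below turn on it. Hspb8, with 1 match 2 to 9 bases after its start, is the fifth. Capitals mark the matches, each sequence runs 5′ to 3′ on the strand of its gene, and a match is a description of letters, not a mapped site. The windows are chr17:34972107-34972406 (minus) for Hspa1a, chr17:34959189-34959488 (minus) for Hspa1b, chr5:135887669-135887968 (plus) for Hspb1, chr5:149636266-149636565 (minus) for Hsph1 and chr3:40745363-40745662 (plus) for Hspa4l.
Hspa1a: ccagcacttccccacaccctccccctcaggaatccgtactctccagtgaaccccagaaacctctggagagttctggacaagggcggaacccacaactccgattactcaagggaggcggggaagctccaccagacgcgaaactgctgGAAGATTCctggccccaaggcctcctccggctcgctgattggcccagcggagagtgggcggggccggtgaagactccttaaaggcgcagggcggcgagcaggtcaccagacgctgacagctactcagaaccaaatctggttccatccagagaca
Hspa1b: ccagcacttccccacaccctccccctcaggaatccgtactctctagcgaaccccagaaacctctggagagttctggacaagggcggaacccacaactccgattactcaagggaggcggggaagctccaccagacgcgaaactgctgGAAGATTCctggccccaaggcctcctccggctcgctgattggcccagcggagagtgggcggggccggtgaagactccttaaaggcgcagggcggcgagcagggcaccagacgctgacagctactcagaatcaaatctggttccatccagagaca
Hspb1: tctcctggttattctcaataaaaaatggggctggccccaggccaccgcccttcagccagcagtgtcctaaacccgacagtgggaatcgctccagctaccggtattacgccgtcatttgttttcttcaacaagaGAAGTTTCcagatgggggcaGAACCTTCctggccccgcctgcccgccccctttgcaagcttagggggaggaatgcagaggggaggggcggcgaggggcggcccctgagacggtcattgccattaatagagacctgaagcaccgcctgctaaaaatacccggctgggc
Hsph1: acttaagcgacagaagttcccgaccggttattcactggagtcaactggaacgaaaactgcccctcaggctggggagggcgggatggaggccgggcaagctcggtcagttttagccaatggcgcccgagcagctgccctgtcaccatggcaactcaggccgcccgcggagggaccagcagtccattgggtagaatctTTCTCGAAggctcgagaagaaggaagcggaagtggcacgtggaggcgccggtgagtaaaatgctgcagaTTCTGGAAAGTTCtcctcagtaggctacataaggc
Hspa4l: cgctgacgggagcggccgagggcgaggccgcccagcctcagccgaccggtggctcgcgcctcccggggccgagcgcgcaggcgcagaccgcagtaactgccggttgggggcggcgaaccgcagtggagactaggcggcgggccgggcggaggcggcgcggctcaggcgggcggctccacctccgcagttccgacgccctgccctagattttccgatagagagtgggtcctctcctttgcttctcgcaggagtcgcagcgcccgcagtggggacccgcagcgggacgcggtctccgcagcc
In Hspa1a and Hspa1b the match lies 97 to 104 bases before the start, and in Hspb1 the matches span 90 to 117 bases before it. In Hsph1 they lie on both sides of the start. No match was found in the windows of Hspa4l and Dnajb1.

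Cryab and Hspb1 differed most between the libraries of the 10 genes. Cryab (ENSMUSG00000032060, chr9:50751325-50756636, plus strand) encodes alphaB-crystallin, which binds desmin and actin filaments. It was at 220 CPM in iWAT_DFAT (95% interval 218 to 222), 1373 in eWAT_DFAT (1368 to 1379), 751 in iWAT_SVF (747 to 755) and 1630 in eWAT_SVF (1624 to 1635). Intervals of levels are exact Poisson intervals. These, and the binomial intervals of ratios and of shares of cells given below, cover counting error only, since cells of 1 library are not replicates, and with 1 library in a group the spread between cultures is unknown. Cryab was therefore lowest in the inguinal DFAT library and higher in the epididymal than in the inguinal library of both culture types. Hspb1 (chr5:135887919-135889563, plus strand), the Hsp27 protein that binds actin, was at 119 CPM in iWAT_DFAT, 275 in eWAT_DFAT, 331 in iWAT_SVF and 797 in eWAT_SVF. Hspb8 (chr5:116408491-116422864, minus strand), which works with Bag3 to deliver misfolded proteins to autophagy, stayed within 50.6 to 60.2 CPM.

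The Hsp70 group differed less. Hspa8 (chr9:40800984-40810087, plus strand) was at 1358, 1621, 1555 and 1459 CPM. Hspa1a was at 9.59 (9.15 to 10.0), 6.28 (5.92 to 6.65), 5.66 (5.34 to 6.003) and 9.37 (8.95 to 9.81) CPM, so its level was higher in iWAT_DFAT and eWAT_SVF than in the other two libraries. Hspa1b was at 13.8, 9.67, 10.4 and 12.9 CPM, with the same pair of libraries on top. Dnajb1 (chr8:83608193-83612653, plus strand), the main partner J protein of stress Hsp70, was at 53.6 CPM in iWAT_DFAT and at 32.5 to 36.4 in the other 3. Hspa4l (chr3:40744495-40796103, plus strand), an Hsp110 protein also known as osmotic stress protein, was at 22.7 and 29.9 CPM in the DFAT libraries and at 13.4 and 14.8 in the SVF libraries. Hsph1 (chr5:149614287-149636376, minus strand), the Hsp110 exchange factor, was at 73.4 to 76.2 CPM in 3 libraries and at 37.4 in eWAT_SVF. Hsp90aa1 (chr12:110690605-110702728, minus strand), the inducible cytosolic Hsp90, was at 861, 1125, 922 and 816 CPM. Counting intervals of neighbours in the order of levels overlapped for Hspa1a and for Hspa1b in the 2 highest and in the 2 lowest libraries, for Dnajb1 in eWAT_DFAT and eWAT_SVF, for Hsph1 in its 3 highest libraries, and for Hspb8 within the DFAT pair and within the SVF pair.

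**Figure D1:**
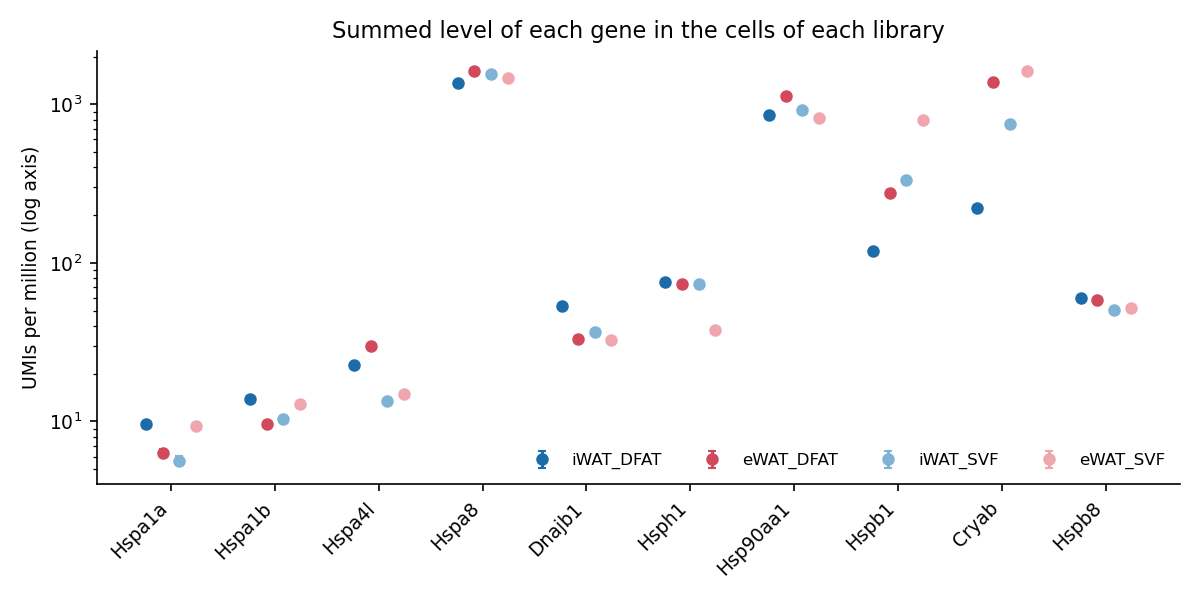
Summed level of each of the 10 genes in CPM on a log axis, 1 point for each of the 4 libraries with exact Poisson 95% intervals, most of which are smaller than the point. Cryab spreads from 220 to 1630 and Hspb1 from 119 to 797, whereas Hspb8 stays within 50.6 to 60.2.

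Ratios were taken between pads within a culture type and between culture types within a pad, and a gene was counted at 2-fold or more if it reached 5 CPM in the higher library. Each library enters 2 of the 4 ratios, so they are not independent. For iWAT_DFAT over eWAT_DFAT, 0 of the 10 genes were 2-fold higher and 2 were lower, against 8.29% and 3.95% of all 10384 genes compared. The 2 were Cryab, with a log2 ratio of -2.64 (-2.66 to -2.63, exact conditional binomial interval), and Hspb1, with -1.21 (-1.23 to -1.18). Dnajb1 had the highest ratio, 0.69, short of the threshold. The median of the 10 genes was -0.11 and that of all genes was 0.09.

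The pad ratio of the SVF libraries put the same 2 genes past the threshold. Cryab had a log2 ratio of -1.12 and Hspb1 of -1.27 for iWAT_SVF over eWAT_SVF, and 0 genes were 2-fold higher, against 3.94% lower and 2.94% higher of all 10135 genes. Hsph1 was just short of it at 0.97 (0.93 to 1.01). Hspa1a had a ratio of -0.73 here and of 0.61 in the DFAT pair, and Hspa1b of -0.31 here and of 0.52 there, so both lie in opposite directions in the 2 culture types.

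Between culture types of the inguinal pad, Cryab was at -1.77 (-1.79 to -1.75) and Hspb1 at -1.47 for iWAT_DFAT over iWAT_SVF, both lower in DFAT cells. These were the only 2 of the 10 past the threshold, against 5.18% lower and 9.91% higher of all 10426 genes. Hspa4l and Hspa1a were each at 0.76. In the epididymal pad, 1 gene was higher and 1 lower in eWAT_DFAT than in eWAT_SVF, against 6.44% and 6.67% of all 10298 genes. The higher one was Hspa4l at 1.02 (0.95 to 1.08), an interval that reaches below the threshold, and the lower one was Hspb1 at -1.53. Cryab differed by -0.25 only, and Hsph1 was at 0.98 (0.94 to 1.02).

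**Figure D2:**
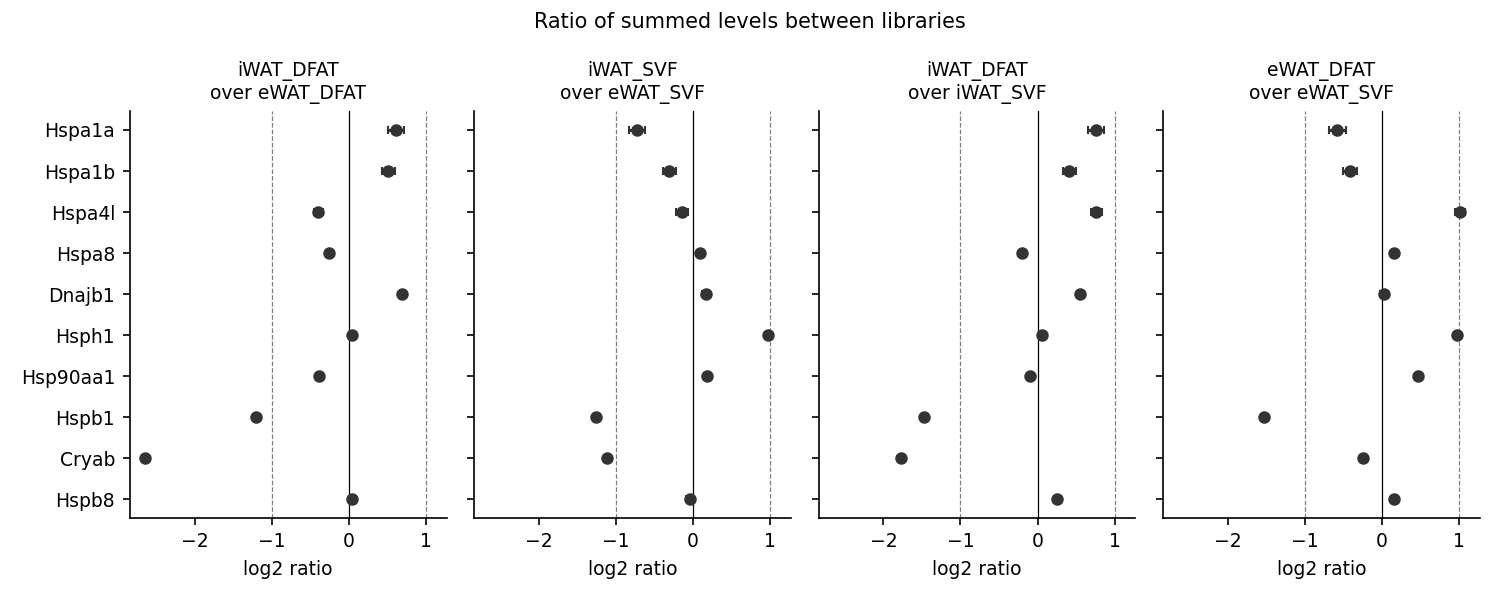
Log2 ratio of summed levels for each gene in the 4 comparisons, with exact conditional binomial 95% intervals, most smaller than the point. Hspb1 lies below -1 in all 4 panels and Cryab in 3, and Hspa4l reaches 1.02 in the epididymal culture comparison.

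Of 51 other genes in 9 lists of chaperones, cochaperones and Hsf regulators, 46 reached the minimum level in each of the 4 comparisons. The 51 are called chaperone genes for short. For iWAT_DFAT over eWAT_DFAT, 1 of the 46 was 2-fold higher and 3 were lower, beside 8.29% and 3.95% of all genes. Hspa12a, a distant Hsp70 relative, was at 13.1 against 2.23 CPM. Bag2, a cochaperone that blocks ubiquitination by Chip, was at 22.2 against 58.3 CPM. The muscle-type small heat shock genes Hspb2 (3.19 against 14.7 CPM) and Hspb7 (5.56 against 15.8 CPM) were the other 2 that were lower. Hspb2 lies head to head with Cryab and their gene models overlap by 1030 bases on opposite strands. The 10x 3′ kit keeps the strand of each read. In the SVF pair 1 of the 46, Hspb7, passed the threshold, lower at 22.6 against 88.9 CPM, beside 2.94% of all genes higher and 3.94% lower.

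For iWAT_DFAT over iWAT_SVF, Bag3, which hands Hsp70 clients to Hspb8 and autophagy, was higher at 136 against 60.0 CPM. Bag2 (log2 ratio -1.37), Hspb2 (-3.38) and Hspb7 (-2.02) were lower. These 1 and 3 of 46 stand beside 9.91% higher and 5.18% lower of all genes. For eWAT_DFAT over eWAT_SVF, 0 of 46 were higher and 5 were lower, beside 6.44% and 6.67% of all genes. The 5 were Hspb7 (-2.49), Hspa2 (-1.70), Hspa12a (-1.31), Hspb2 (-1.22) and Hspb6 (-1.11). All 3 measured small heat shock genes outside the 10 were thus lower in eWAT_DFAT. Of the 3 among the 10, Hspb1 was lower as well, whereas Cryab (-0.25) and Hspb8 (0.16) were short of the threshold.

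The folding machines stayed below the threshold. In the order iWAT_DFAT over eWAT_DFAT, iWAT_SVF over eWAT_SVF, iWAT_DFAT over iWAT_SVF and eWAT_DFAT over eWAT_SVF, 0, 6, 3 and 8 of the 8 subunits of the cytosolic chaperonin, which folds actin and tubulin, had ratios above 0, with medians of -0.34, 0.07, -0.09 and 0.25. The medians of all genes were 0.09, 0.05, 0.09 and 0.07. Of the 8 genes of the Hsp90 list (Hsp90ab1 and the cochaperones), 2, 7, 6 and 8 were above 0, with medians of -0.23, 0.18, 0.05 and 0.55. Of the 4 mitochondrial chaperones 1, 4, 2 and 4 were above 0, and of the 5 ER chaperones 5, 4, 3 and 3. Signs of ratios near 0 depend on the scaling: centred on the median of all genes, some ratios of each of these lists fell below 0. Among them were the chaperonin genes Tcp1 and Cct2 (iWAT_SVF over eWAT_SVF) and Hsp90ab1, Fkbp4 and St13 (iWAT_DFAT over iWAT_SVF). Others were the mitochondrial Hspa9 (0.04, eWAT_DFAT over eWAT_SVF) and the ER gene Serpinh1 (0.07, iWAT_DFAT over eWAT_DFAT). Centring can only lower the counts above 0, since all 4 medians of all genes are above 0. None of these lists had a gene past the threshold. The same held for the 3 Hsf regulators and the J proteins. The 4 comparisons share libraries, and no list was set against the others.

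The share of a gene's UMIs in its top 1% of cells rises as the level falls, so it is read beside genes of like level. After thinning every cell to 5000 UMIs, the top 1% of cells held 32.4%, 52.4%, 38.5% and 25.3% of the Hspa1a UMIs and 30.2%, 44.7%, 26.4% and 22.8% of those of Hspa1b. These shares rest on few UMIs, for example 395 thinned Hspa1a UMIs in iWAT_DFAT and 252 in eWAT_DFAT. Among genes at 5 to 10 CPM (median shares 31.3% to 32.0%) Hspa1a ranked above 54.7%, 96.8%, 80.2% and 14.4%. At 10 to 20 CPM the median shares were 19.3% to 19.7%, so a rank also depends on the place within a band. Hspa1a was near the top of its band in iWAT_DFAT (9.59 CPM) and eWAT_SVF (9.37 CPM). It was lower in eWAT_DFAT (6.28 CPM) and iWAT_SVF (5.66 CPM). Hspa1b ranked above 96.8%, 92.2%, 93.2% and 80.0% of genes in its band (5 to 10 CPM in eWAT_DFAT, 10 to 20 CPM in the others). At full depth the Hspa1a shares were 20.2%, 36.4%, 15.9% and 12.0%. For Hspa4l the thinned shares were 31.1%, 40.6%, 23.5% and 23.7%, and of the 2935 and 2844 genes at 20 to 50 CPM in iWAT_DFAT and eWAT_DFAT (median shares 13.8% and 14.03%) it ranked above 99.5% in each. In the SVF libraries it ranked above 84.9% and 84.1% of the genes at 10 to 20 CPM. Cryab held 14.7%, 7.21%, 7.81% and 7.07% of its UMIs in the top 1% and ranked above 96.8% to 99.4% of genes of like level. Hspa8 had shares of 2.78% to 2.96% and ranked above 63.5% to 73.6% of such genes, and Hsp90aa1 had 2.83% to 3.57% and ranked above 51.3%, 66.7%, 25.6% and 29.5%. Dnajb1 had shares of 13.0%, 13.97%, 12.3% and 13.5%. It ranked above 95.9% of such genes in iWAT_DFAT but above 49.4%, 31.2% and 44.4% in the other libraries. In iWAT_DFAT its 53.6 CPM lay near the foot of the 50 to 100 CPM band, and the others were in the 20 to 50 CPM band. Hsph1 had its highest share, 14.5%, in eWAT_SVF, but there it ranked above 58.4% of such genes, against 77.5% to 85.6% in the other 3.

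Full UMI counts showed the cells behind these shares. The highest Hspa4l count in a cell was 47, 96, 20 and 16 UMIs, and 29, 59, 2 and 1 cells had 10 or more. Hspa1a and Hspa1b were added because it is uncertain how well reads tell them apart. Cells with 10 or more UMIs of the pair, a cut set after the counts were seen, were counted. There were 21 such cells in iWAT_DFAT (0.275%, exact binomial 95% interval 0.170% to 0.420%), 35 in eWAT_DFAT (0.541%, 0.377% to 0.752%), 2 in iWAT_SVF (0.0269%, 0.00326% to 0.0973%) and 0 of 6745 in eWAT_SVF, which allows a share of up to 0.0445% by a limit of 3 counts and of up to 0.0547% by the exact binomial interval. They held 9.51%, 22.3%, 0.718% and 0% of all Hspa1a and Hspa1b UMIs. The largest cell had 86, 52, 12 and 9 UMIs of the pair. Cells with 2 to 4 UMIs of the pair numbered 808, 384, 647 and 1030, so in the epididymal pad they were more frequent in the SVF library. After thinning, 30, 36, 5 and 4 cells had 3 or more UMIs of the pair, which is a description of the same upper tail at equal depth. Lowering the cut to 5 UMIs gave 72, 71, 30 and 54 cells, and raising it to 20 gave 5, 10, 0 and 0.

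**Figure D3:**
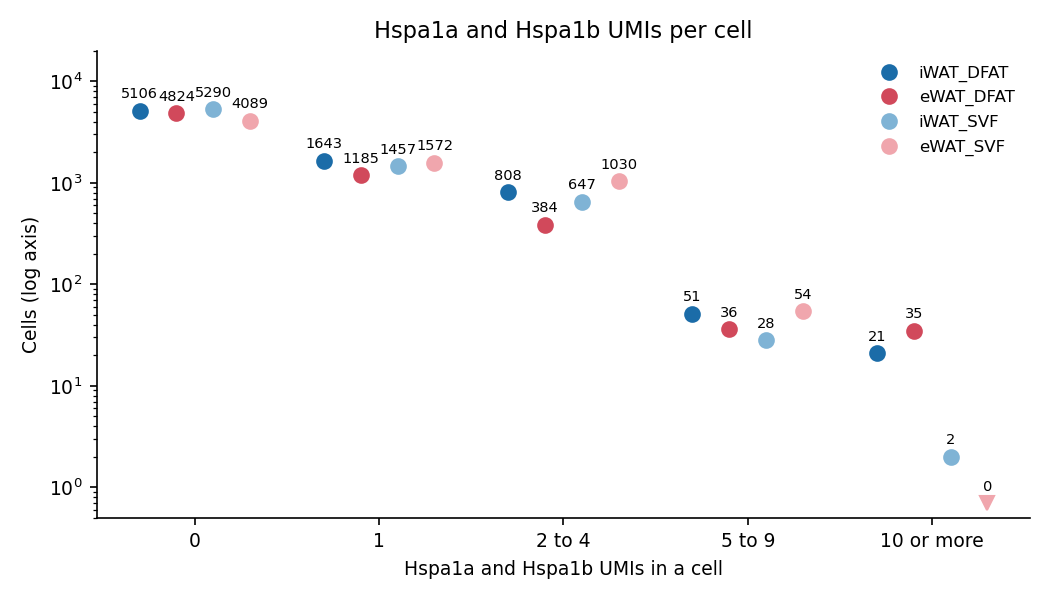
Number of cells on a log axis by the UMIs of Hspa1a and Hspa1b in the cell, for the 4 libraries, with a triangle where a library has 0 cells. All 4 libraries fill the classes up to 9 UMIs, and the class of 10 or more holds 21 and 35 DFAT cells against 2 and 0 SVF cells.

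Cells of each library were clustered on genes other than the 10 and the 51. Of the cells with 10 or more UMIs of the pair, 19 of 21 in iWAT_DFAT and 35 of 35 in eWAT_DFAT fell into 1 small cluster per library, of 55 cells (0.721%, 0.544% to 0.937%) and 79 cells (1.22%, 0.969% to 1.52%). The cluster was singled out after its Hspa1a and Hspa1b counts were seen. It was named fibroblast-like because no other type was called and several fibroblast markers were widely seen in its cells. No fixed cell type marker is among its top 10 genes. Outside it the highest cell had 10 UMIs of the pair in iWAT_DFAT and 7 in eWAT_DFAT. Coarser and finer clustering (resolutions of 0.5 and 2) gave 54 and 55 cells in iWAT_DFAT and 81 and 80 in eWAT_DFAT, again with 19 and 35 of those cells. Because clusters are formed from the cells compared, the values below are a description.

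Hspa4l was higher in nearly all cells of this cluster. It was at 664 CPM (617 to 713) against 18.7 in the other cells of iWAT_DFAT, 35.5-fold, and at 1003 CPM (956 to 1052) against 20.9 in eWAT_DFAT, 47.9-fold. At least 1 Hspa4l UMI was seen in 55 of 55 and 78 of 79 cells, against 30.2% and 38.0% of the other cells. The cluster held 18.1% and 30.7% of the library's Hspa4l UMIs in 0.721% and 1.22% of its cells. Hspa4l was not confined to the cells with many Hspa1a and Hspa1b UMIs: in the 36 and 44 cells of the cluster with fewer than 10 it was at 571 and 847 CPM.

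Hspa1a and Hspa1b, whose counts singled out the cluster, are given for completeness. Hspa1a was at 165 against 8.62 CPM and at 238 against 4.13 CPM, 19.1-fold and 57.7-fold, and Hspa1b was 23.0-fold and 37.7-fold higher. The exchange factor Hsph1 was at 524 against 73.4 CPM and 372 against 71.1 CPM (7.14-fold and 5.24-fold). Hspb1 was 6.21-fold and 3.20-fold higher, and Hspb8 was 2.95-fold and 2.77-fold higher. Cryab was at 1898 against 210 CPM and 5203 against 1338 CPM (9.05-fold and 3.89-fold). Dnajb1 was 1.72-fold and 2.72-fold higher. Hspa8 and Hsp90aa1 differed least of the 10: Hspa8 was at 0.973 and 0.779 times and Hsp90aa1 at 1.16 and 0.918 times its level in the other cells. Across all genes at 20 CPM or more, 9.43% and 11.1% were 2-fold higher in the cluster and 13.2% and 16.1% lower. No count of the 10 genes is set against these shares, because Hspa1a and Hspa1b chose the cluster and they and Hspa4l are low outside it.

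The cells of the cluster with most UMIs of the pair show the pattern in single cells. The highest iWAT_DFAT cell (33922 UMIs) had 29 Hspa1a, 57 Hspa1b, 42 Hsph1 and 9 Hspa4l UMIs, and the third (33620 UMIs) had 26, 9, 41 and 22. The second highest eWAT_DFAT cell (54366 UMIs) had 29 Hspa1a, 17 Hspa1b, 34 Hsph1 and 81 Hspa4l UMIs with 350 of Cryab and 442 of Akr1b3, whereas the first (15354 UMIs) had 21, 31, 14 and 18 with 109 and 87.

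**Figure D4:**
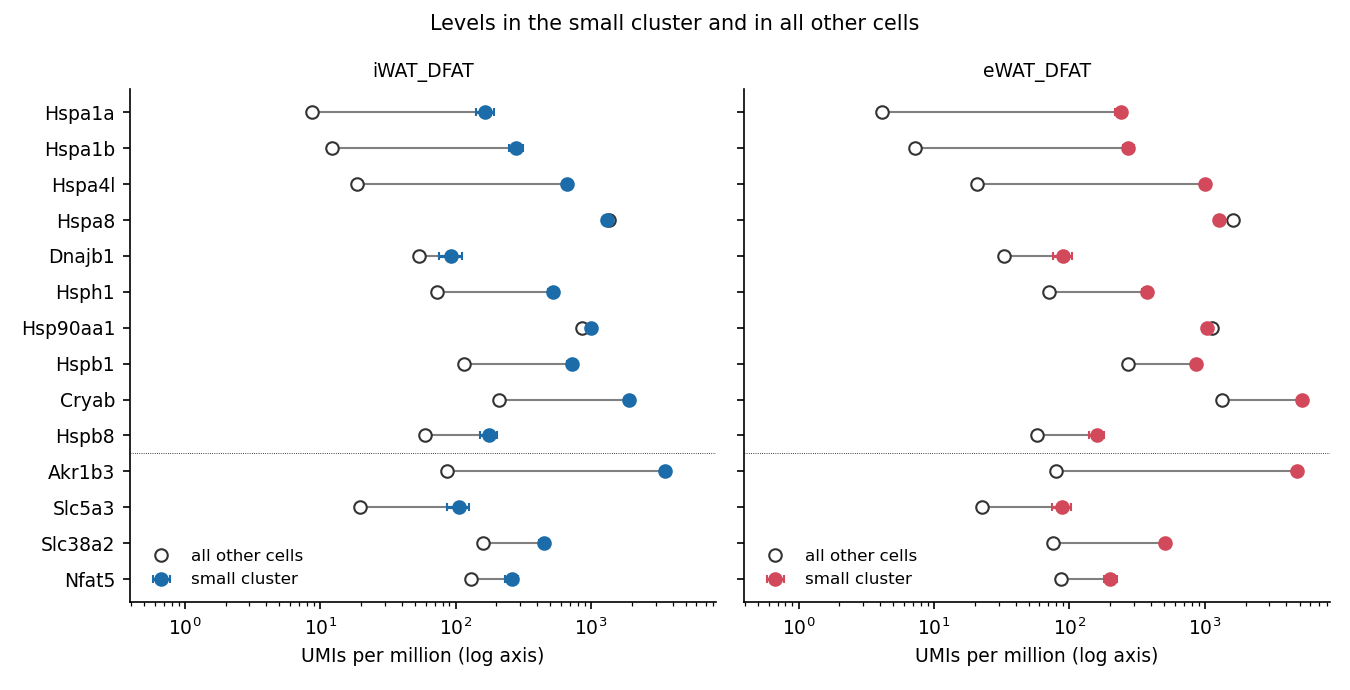
Level of each of the 10 genes, and of Akr1b3, Slc5a3, Slc38a2 and Nfat5, in the small cluster (filled, with exact Poisson 95% intervals) and in all other cells (open) of iWAT_DFAT and eWAT_DFAT, in CPM on a log axis. Hspa4l lies at 664 and 1003 in the cluster against 18.7 and 20.9 outside, whereas the Hspa8 points lie close together at 1321 and 1358 in iWAT_DFAT and 1265 and 1624 in eWAT_DFAT.

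Akr1b3, Slc6a12, Slc5a3, Slc38a2, Slc6a6 and Nfat5 were picked after the cluster's leading genes were seen, so their levels are a description of these genes and not of a group. Akr1b3, the aldose reductase that makes sorbitol, was at 3539 against 86.6 CPM in iWAT_DFAT and 4773 against 79.6 CPM in eWAT_DFAT. The betaine transporter Slc6a12 was at 76.7 against 0.126 CPM and 107 against 0.451 CPM. The myo-inositol transporter Slc5a3 was at 105 against 19.6 and 87.7 against 22.7, and the amino acid transporter Slc38a2 at 448 against 159 and 511 against 76.0. The taurine transporter Slc6a6 was at 191 against 124 and 196 against 134, under 2-fold in both libraries. Nfat5, the transcription factor known for turning on such genes, was at 258 against 129 CPM and 201 against 86.2 CPM.

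Akr1b3 is one of the genes that led the cluster, so its overlap with the cluster is a description only. Of the cells with 30 or more Akr1b3 UMIs, a cut set after the values were seen, 45 of 49 in iWAT_DFAT and 72 of 77 in eWAT_DFAT were in the cluster. The overlap with the cells of 10 or more Hspa1a and Hspa1b UMIs was 18 cells in iWAT_DFAT (36.7% of the Akr1b3 cells and 85.7% of the Hspa1 cells) and 34 in eWAT_DFAT (44.2% and 97.1%). SVF libraries had 0 and 3 such cells, although 82.0% and 87.0% of their cells had an Akr1b3 UMI. The highest Akr1b3 count in a cell was 235, 442, 29 and 36 UMIs, so the 0 in iWAT_SVF depends on the cut. Cells with a Slc6a12 UMI made up 0.708%, 2.00%, 0.768% and 1.23% of the libraries. No SVF cluster was led by these genes. The cytokine gene Il11 was at 597 against 10.7 CPM and 860 against 42.1 CPM in the cluster.

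The other lists were uneven in the cluster. Over all genes at the same minimum of 5 CPM, 11.4% and 11.9% were 2-fold higher in the cluster of iWAT_DFAT and of eWAT_DFAT, and 17.1% and 20.4% lower. Of 10 immediate early genes, 2 were 2-fold higher in iWAT_DFAT (Atf3 and Ier3) and 10 in eWAT_DFAT. Of 7 NRF2 targets, which protect from oxidants, 5 and 1 were higher. Of the ATF4 targets, which answer amino acid and ER stress, 4 of 8 and 2 of 6 measured were higher. Of 10 G2 and M phase genes, 10 and 7 were lower, and of 10 S phase genes 8 and 3. Contractile genes were lower for 1 of 7 and 7 of 10 measured. Of the 46 and 45 chaperone genes measured, 3 and 4 were higher and 1 and 3 lower. Hspb2 and the Hsf regulator Hsf2 were higher and Hspb7 lower in both libraries. Dnajb4 was 2-fold higher in iWAT_DFAT, and Dnaja1 and Dnaja2 in eWAT_DFAT, where Bag2 and Cct6a were lower.

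Several technical measures moved with the cluster, and their part in these values was not tested. Its median UMIs were 18892 against 22143 in the other cells of iWAT_DFAT and 18969 against 27542 in eWAT_DFAT, and its median genes 4210 against 5064 and 3907 against 5415. The nuclear RNA Malat1 was at 19243 against 8756 CPM and 22388 against 6918 CPM. Median mitochondrial shares were 2.67% against 3.13% and 1.89% against 1.95%. Among the highest-ranked doublet scores were 5 (9.09%) and 10 (12.7%) of its cells, against 6.09% and 5.07% of the others, but 0 and 1 of the cells with 10 or more UMIs of the pair. The 7 adipocyte markers summed to 3.53 against 26.5 CPM and 9.42 against 106 CPM, with 4 and 3 of them at 0. Schwann markers summed to 0.882 against 5.59 CPM and 3.53 against 1.98 CPM, with 6 and 3 of 7 at 0. Mesothelial markers summed to 18.5 against 5.75 CPM, with Krt19 2-fold higher, and to 5.30 against 10.7 CPM, with 4 of 6 at 0 in each. Endothelial markers summed to 12.3 against 20.8 CPM and 16.5 against 48.4 CPM (5 and 2 of 7 at 0), and immune markers to 24.7 against 20.4 CPM and 22.4 against 17.7 CPM (5 and 3 of 7 at 0). Pericyte markers summed to 9.70 against 10.4 CPM and 27.7 against 18.2 CPM (3 and 1 of 7 at 0), with Mcam 2-fold higher in both, Abcc9 higher in eWAT_DFAT and Notch3 lower in iWAT_DFAT. Smooth muscle markers summed to 24.7 against 24.05 CPM and 138 against 420 CPM (1 and 0 of 5 at 0), with Actg2, Cnn1 and Lmod1 lower in eWAT_DFAT. Fibroblast and progenitor markers summed to 5455 against 6356 CPM and 2963 against 1815 CPM, with Col1a1 and Col3a1 2-fold lower in iWAT_DFAT and Dcn, Col3a1 and Ly6a higher in eWAT_DFAT.

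Leaving out the cluster shows how far it sets the library levels. Hspa4l for eWAT_DFAT over eWAT_SVF then fell from 1.02 to 0.50, below the threshold, and Hspa4l for iWAT_DFAT over iWAT_SVF from 0.76 to 0.48. Hspa1a for iWAT_DFAT over eWAT_DFAT rose from 0.61 to 1.06, and for eWAT_DFAT over eWAT_SVF it went from -0.58 to -1.18, both past the threshold. The cluster was singled out on Hspa1a and Hspa1b and left out of the DFAT libraries only. A fall of Hspa1a in these libraries was thus set by that choice. Hspa4l, Cryab and Hspb1 are also higher in the cluster, so leaving it out could only lower their ratios over the SVF libraries. All these ratios are a description and not a check. Cryab was at -1.84 and Hspb1 at -1.52 for iWAT_DFAT over iWAT_SVF, where staying past the threshold was set by the choice. For iWAT_DFAT over eWAT_DFAT, where both libraries lost their cluster, they were at -2.67 and -1.22.

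The SVF cells highest in Hspa1a and Hspa1b have few UMIs of the pair and are no match for the DFAT cells above, so their values are given only as a description. In the 74 and 67 cells of the top 1% of iWAT_SVF and eWAT_SVF, with 1 to 12 and 1 to 9 UMIs of the pair, Hspa4l was 0.995 and 1.24 times its level in the other cells, on 22 and 24 UMIs. Hsph1 was 0.773 and 1.08 times and Hspb1 1.09 and 1.19 times. In the top 1% of the DFAT libraries (76 and 65 cells) Hspa4l was 20.1-fold and 49.5-fold higher. Of genes at 20 CPM or more in these cells of every library, the 10 with the largest smallest log2 ratio over the 4 libraries were, after Hspa1b and Hspa1a themselves, Fzd5 (0.75), Tiparp (0.67), Serpine2 (0.64), Pim1 (0.63), Ptgs2 (0.61), the J protein Dnajb4 (0.61), Lgals3bp (0.60) and Ogn (0.60).

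Correlations across the cells of a library are a description, since all cells share a library and differ in depth. Hspa1a and Hspa1b had Pearson's r of 0.24, 0.55, 0.14 and 0.11 over the cells of the 4 libraries. Without the top 1% of cells these were 0.06, 0.10, 0.06 and 0.07, and after thinning to 5000 UMIs they were 0.13, 0.38, 0.04 and 0.0067. That 1% was chosen on Hspa1a and Hspa1b together, so a lower r of pairs with either gene was favoured by the choice. Hspa1b and Hspa4l had r of 0.25, 0.49, 0.03 and 0.01, which became 0.07, 0.13, 0.04 and 0.0015 without the top 1% and 0.13, 0.33, 0.0071 and 0.012 after thinning. Of the 45 pairs of the 10 genes, 18, 24, 6 and 6 were over 0.1, and 9, 8, 5 and 5 without the top 1%. The share of all gene pairs over 0.1 was not taken, so these counts are not read as a result about the 10 genes. Hspb1 and Cryab had r of 0.23, 0.25, 0.33 and 0.49.

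Of 5120 genes compared, those most like Hsp90aa1 were Ranbp1, Ran and Ptma (mean r 0.52, 0.51 and 0.47), and its r with the summed chaperonin genes was 0.61, 0.54, 0.45 and 0.47. It also had r of 0.45, 0.37, 0.44 and 0.41 with the G2 and M phase list. Cryab was most like S100a6, Lgals1 and S100a4 (0.40, 0.38, 0.34), Hspb1 like Myl6, Dstn and Msrb1 (0.36, 0.35, 0.33), and Hspa8 like Tubb5, Snrpd1 and Zyx (0.31, 0.30, 0.28). The other 6 genes had no mean r above 0.23. Of these, Hspa4l, Hspa1b and Hspa1a had Akr1b3 as the gene most like them (mean r 0.23, 0.17 and 0.17), with r of 0.52, 0.48 and 0.49 in eWAT_DFAT and 0.32, 0.24 and 0.17 in iWAT_DFAT, but at most 0.051 in the SVF libraries.

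Cell types were named per library from fixed markers. Cryab was high in Schwann-like cells, at 2793 CPM (2590 to 3008, 18 cells) in iWAT_DFAT and 2568 (2502 to 2634, 149 cells) in iWAT_SVF. In mesothelial-like cells it was at 2372 CPM (80 cells) in eWAT_DFAT and 1271 (483 cells) in eWAT_SVF. In adipocyte-like cells it was low, at 49.8 CPM (36.8 to 65.8, 41 cells) in iWAT_DFAT and 90.1 (76.8 to 105, 94 cells) in eWAT_DFAT. Endothelial-like cells had 86.4, 342, 97.7 and 201 CPM (20, 143, 56 and 134 cells), the last from 2 clusters at 46.3 (77 cells) and 355 CPM (57 cells). Cryab was thus lower in endothelial-like and adipocyte-like cells than over all cells of the same library, by counting intervals. Low levels were not particular to these types. Pericyte-like cells had 726 CPM in eWAT_DFAT (185 cells), 1407 in iWAT_SVF and 1366 in eWAT_SVF (10 cells each). Immune-like cells of eWAT_SVF had 471 CPM (25 cells).

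Other members had their own order. Hspb1 was at 20.01 and 131 CPM in Schwann-like cells, where Cryab was high, and at 144, 831, 242 and 375 CPM in endothelial-like cells, where the 2 eWAT_SVF clusters were at 159 and 590 CPM. Hspb8 was at 72.1 and 88.4 CPM in adipocyte-like cells and at 12.0 and 14.1 in Schwann-like cells. Hspa4l was at 103 and 85.7 CPM in the endothelial-like cells of the SVF libraries and at 16.8 and 28.9 in those of the DFAT libraries. The eWAT_SVF value is carried by 1 of its 2 endothelial-like clusters, at 151 CPM (77 cells), while the other was at 20.6 (57 cells). Hsph1 in the same cells was at 162 and 182 CPM in the SVF libraries and at 103 and 63.1 in the DFAT libraries, again with 289 and 75.5 in those 2 clusters of eWAT_SVF. Levels in fibroblast-like and smooth muscle-like cells are not compared between libraries, because fibroblast-like clusters in eWAT_SVF (Myh11) and iWAT_DFAT (Lmod1, Acta2, Myl9) had smooth muscle genes among their leading genes.

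**Figure D5:**
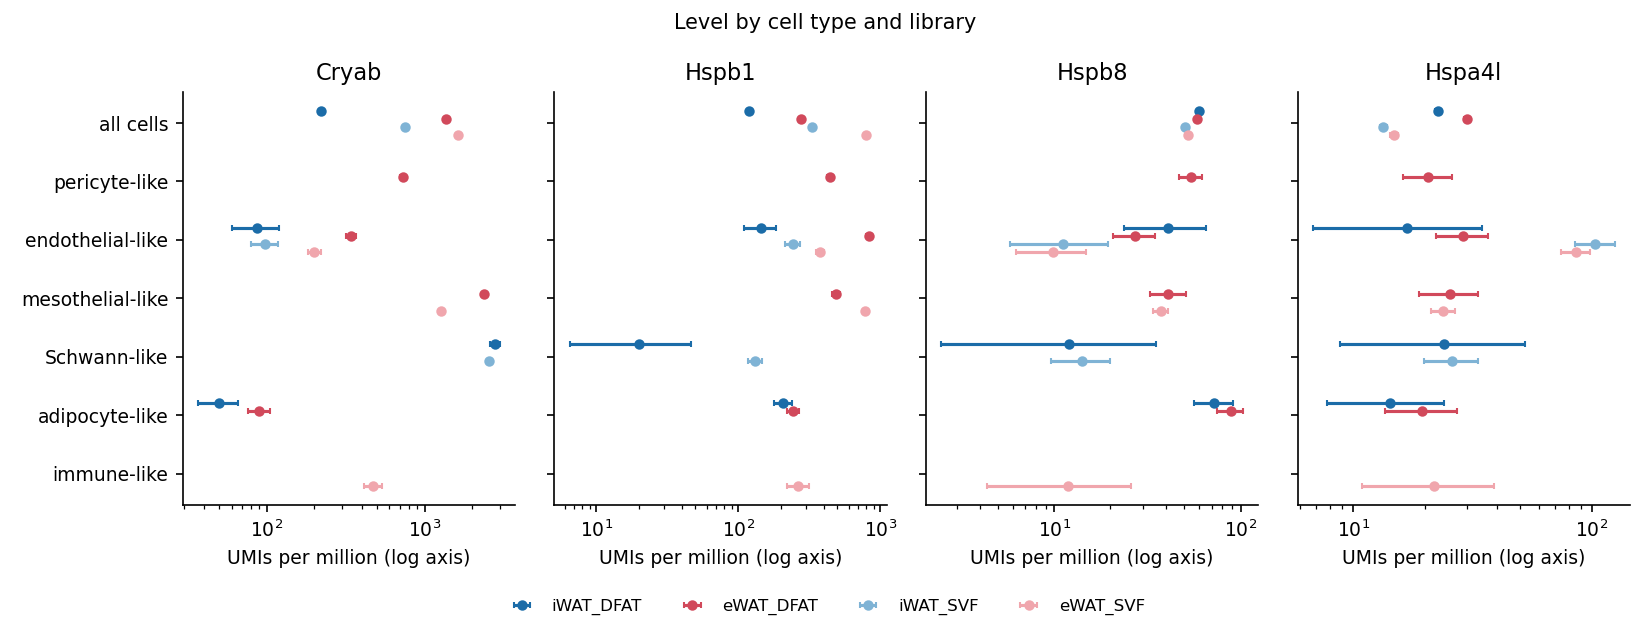
Level of Cryab, Hspb1, Hspb8 and Hspa4l over all cells and in each named cell type (18 cells or more) by library, in CPM on a log axis, with exact Poisson 95% intervals. Cryab lies at 2568 to 2793 in Schwann-like cells and at 49.8 to 90.1 in adipocyte-like cells.

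Over the 12, 13, 16 and 12 clusters with 100 or more cells, Cryab ran from 92.7 to 771, 342 to 2728, 294 to 2568 and 815 to 3730 CPM. Hspb1 ran from 77.2 to 192, 148 to 831, 131 to 614 and 487 to 1214 CPM. Among these clusters the ranges of Hspb1 in iWAT_DFAT and eWAT_SVF did not overlap, whereas those of iWAT_DFAT and of eWAT_DFAT or iWAT_SVF did. Smaller clusters crossed this gap: the iWAT_DFAT cluster of 55 cells was at 718 CPM and an endothelial-like eWAT_SVF cluster of 77 cells at 159 CPM. Hspa8 ran from 973 to 2045 CPM over all these clusters. Hsph1 ran from 25.03 to 52.3 CPM in eWAT_SVF and from 34.8 to 125 in the other 3 libraries. The upper ends 771 and 2728 of Cryab and 192 and 614 of Hspb1 lie in unnamed clusters of low-UMI cells, described next. So does the lower end 34.8 of Hsph1.

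An unnamed cluster of low-UMI cells in each library (107, 170, 216 and 206 cells, median UMIs 8417, 7188, 7188 and 7860) had nearly no Hspa1a or Hspa1b, at 0 to 1.87 CPM for each gene. Dnajb1 was at 6.54, 8.52, 6.35 and 10.2 CPM in these cells. Hsp90aa1, on the contrary, was at 1608, 1505, 1368 and 1167 CPM, above its level over all cells of each library. Cryab was at 771, 2728, 1185 and 2415 CPM in them, and Hspb1 at 192, 483, 614 and 934 CPM. Both were also above their levels over all cells of each library. Malat1 in them was at 433, 111, 382 and 822 CPM, against 6751 to 8820 over all cells.

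Free RNA, read from droplets with 1 to 100 UMIs, held more Hspa1b than the cells: 28.2, 19.0, 20.3 and 35.6 CPM, a log2 ratio of cells over free RNA of -1.03, -0.98, -0.97 and -1.47. Free Hspa1a was at 12.0, 7.56, 6.30 and 14.5 CPM, a ratio of -0.32, -0.27, -0.15 and -0.63. Free RNA of both genes was thus also higher in iWAT_DFAT than in eWAT_DFAT, and in eWAT_SVF than in iWAT_SVF. These values give the make-up of free RNA and not its amount in a cell. How much of the low Hspa1a and Hspa1b counts in cells, and of their opposite pad ratios, came from free RNA was not tested. Hsp90aa1 was higher in cells, at 0.31, 0.34, 0.34 and 0.27.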

How the data were processed

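The 4 libraries were made with the 10x 3′ kit and sequenced by the study. The authors aligned reads to mm10 with Cell Ranger 7.0.0, introns included, per the labels and methods. The file headers name 7.1.0 for 3 libraries and 4 for iWAT_SVF. The deposited values are raw UMI counts per gene and barcode, before the authors' removal of free RNA and doublets. Cells were barcodes with 5000 to 75000 UMIs, 200 to 7500 genes and under 10% mitochondrial UMIs, and held 183664704 to 199357348 UMIs a library. Counts were summed over cells and scaled to counts per 1000000 UMIs (CPM). With 1 library per group no test between groups exists and no p-value is given. The named genes and lists were chosen with earlier results of these data known. Named were the 10 genes, the up to 5 chaperone genes of largest ratio past 2-fold, the 3 genes most like each member, and 10 genes highest in cells with most Hspa1a and Hspa1b. Clusters came from Scanpy 1.11.5 (2000 variable genes, 30 components, 15 neighbours, Leiden resolution 1, igraph 0.11.9), and intervals from SciPy 1.17.1. Scrublet's own threshold marked almost no cells, so doublets stayed in and the highest scores were removed in an alternative only. Scripts were tested on simulated data.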

Additional observations from a re-analysis of the deposited data

Results flagged for a closer look

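Ratios of 5 genes pointed in opposite directions in the 2 culture types or the 2 pads. Each rests on 1 library per group, and the differences were not tested. The log2 ratio of iWAT over eWAT was 0.61 in DFAT and -0.73 in SVF cells for Hspa1a, a difference of 1.34. For Hspa1b it was 0.52 and -0.31, a difference of 0.83. For Hspa8 it was -0.26 and 0.09 (difference -0.35), for Hsp90aa1 -0.39 and 0.18 (difference -0.56), and for Hspb8 0.05 and -0.05 (difference 0.093). Centred on the median of all genes, the Hspb8 ratio is below 0 in both. Centring also puts Hsph1 below 0 for iWAT_DFAT over eWAT_DFAT (0.04 before it), but not for the SVF pair (0.97 before it). Likewise Dnajb1 falls below 0 for eWAT_DFAT over eWAT_SVF (0.03 before centring), but not for iWAT_DFAT over iWAT_SVF (0.56 before it). Which genes are listed thus depends on the scaling. Taken as DFAT over SVF within each pad, the same 4 libraries give the same differences, with ratios of 0.76 (iWAT) and -0.58 (eWAT) for Hspa1a, 0.41 and -0.42 for Hspa1b, -0.20 and 0.15 for Hspa8 and -0.10 and 0.46 for Hsp90aa1.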

How the results depend on the processing

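In 12 alternative settings, 162 of 182 counts of genes past the threshold stayed within 1.5 times. No ratio of the 10 genes that was past the threshold changed sign. Of all 3070 results and settings compared, 2312 moved by less than the counting error or the 1.5-fold limit. Correlations depended on depth: thinning to 5000 UMIs moved 113 of 180. Without the small cluster, Hspa1a for eWAT_DFAT over eWAT_SVF went from -0.58 to -1.18. That cluster was singled out on Hspa1a and Hspa1b and left out of the DFAT libraries only, so this direction was set by the choice. In the 9 other settings computed for each ratio the largest shift was 0.51, without the 1% of cells highest in Hspa1a and Hspa1b. It was that of Hspa1a for eWAT_DFAT over eWAT_SVF, a gene those cells were chosen on. Next came 0.27, with the mean of the cells' own CPM, and 0.09 or less in the remaining settings. For eWAT_DFAT over eWAT_SVF, the 1 gene higher in eWAT_DFAT (Hspa4l) became 0 with no upper limit on genes, with ratios centred on the median of all genes, without that 1% of cells and without the small cluster (the last added after seeing the data). The 1 gene higher in eWAT_SVF (Hspb1) became 2, with Hspa1a, without that 1% and without the cluster. Both sets of cells were chosen on Hspa1a and Hspa1b, and in eWAT_DFAT both are also high in Hspa4l. Without these cells the changes of Hspa1a and Hspa4l were thus favoured by the choice. Without the cluster 1 of the 10, Hspa1a, was higher in iWAT_DFAT than in eWAT_DFAT. A fold of 1.5 in place of 2 gave 2 of the 10 genes higher in iWAT_DFAT over eWAT_DFAT and over iWAT_SVF, 1 higher in iWAT_SVF over eWAT_SVF and 2 higher in eWAT_DFAT over eWAT_SVF. For the 51 chaperone genes it gave 2 higher in iWAT_DFAT over eWAT_DFAT, 1 higher in iWAT_SVF, 4 higher in eWAT_SVF over iWAT_SVF, 5 higher in iWAT_DFAT over iWAT_SVF and 9 higher in eWAT_DFAT over eWAT_SVF. With no minimum level these were 1 in iWAT_SVF, 2 in eWAT_SVF, 2 in iWAT_DFAT over iWAT_SVF and 2 in eWAT_DFAT over eWAT_SVF. The share of all genes past the threshold was taken in the main setting only, so all these counts only describe the settings.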
